A study of Mus musculus with 186 samples.

Results

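Pcsk1 encodes prohormone convertase 1/3, a protease of secretory granules. It is followed here from its introns to its mRNA in mouse neurons after brief and sustained activity, with the MEK kinases inhibited or protein synthesis blocked. The gene was taken by name, and it is 1 of 298 genes in the captured gene panel, 1 of 27962 transcripts in the intron table of total RNA (NM_013628), and the nearest gene of 1 of 351 captured enhancer regions. The series holds 186 samples, of which 1 could not be placed in a group. Cortical neurons came from CD1 mouse embryos dissected at E16.5 and were cultured for 7 to 8 days. Captured cultures were exposed to sustained activity for 20, 60 or 360 min in U0126 (3, 3 and 2 replicates), to the same times of sustained activity in vehicle (3, 7 and 6), or to brief activity read at 20, 60 or 360 min in vehicle (3, 7 and 5). Their references were unstimulated cultures in U0126 (3) and in vehicle (7), and a replicate is a dissection whose cultures were averaged. U0126 is an inhibitor of MEK, the kinase that activates ERK, the vehicle was DMSO, and the labels leave out how activity was evoked in culture. A separate experiment put cycloheximide, which blocks protein synthesis, beside vehicle in cultures with 360 min of sustained activity and in unstimulated cultures (2 replicates in each of the 4 groups). Introns were read in total RNA libraries of cultures with sustained or brief activity for 20 or 60 min or left unstimulated, in U0126 or vehicle (1 or 2 replicates), and enhancer regions were captured in the same 10 conditions (4 replicates each). Visual cortex came from adult male C57/Bl6 mice given SL327, another MEK inhibitor, or corn oil, and kept in the light (sustained or brief) or in the dark, at 30 or 150 min (2 or 3 samples a group).

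Neuropeptides and several growth factors are made as inactive precursors that are cleaved at pairs of basic residues inside secretory granules. Pcsk1 and Pcsk2 are the main enzymes of that step in neurons and endocrine cells. Carboxypeptidase E then trims the ends, Pam amidates them, and granins such as Scg2, Chga and Vgf help to form the granule and are themselves cleaved to peptides. Introns are removed soon after they are transcribed, so intron reads follow recent transcription more closely than mRNA reads do.

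The promoter window of Pcsk1 is shown because transcription of the gene is a main readout below. It covers 300 bases on the plus strand at chr13:75089607-75089906 (RefSeq, build GRCm38.p6), from 250 bases before the annotated start to 50 after it. Capitals mark the letters TGACG, with the full cAMP response element TGACGTCA shown whole.

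Pcsk1 promoter: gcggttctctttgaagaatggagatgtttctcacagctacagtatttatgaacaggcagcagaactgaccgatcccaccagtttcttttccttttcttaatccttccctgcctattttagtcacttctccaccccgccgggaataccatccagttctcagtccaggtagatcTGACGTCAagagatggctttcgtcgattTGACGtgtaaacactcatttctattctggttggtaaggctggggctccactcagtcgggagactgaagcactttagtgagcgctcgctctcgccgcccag

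The full element TGACGTCA, which the factor CREB is known to bind, starts 78 bases before the start site and occurs in 1.79% of the 32851 promoter windows of the same length. The shorter form TGACG matched 3 times over both strands, 2 of them inside the full element, and 20.8% of promoters hold it. The window holds no match on either strand to the AP-1 letters TGANTCA (present in 7.81% of promoters), the NPAS4 core TCGTG (16.0%), the E-box letters CANNTG (72.3%), TATAAA (13.6%) or the SRF CArG box (1.63%). A match describes the letters of this window and no more.

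Captured levels are given as normalised read counts, in which the reads of each library were divided by a single factor that the labels and headers do not state. Reads were recovered from the values, and the culture gene capture held 8498 to 3295698 reads per library, the cycloheximide experiment 1253748 to 7695002 and the introns 10486281 to 25945718. The intervals of folds given below come from the standard errors of the limma fits, which measure the spread between replicates. In bulk samples fewer cells of a type and less RNA per cell cannot be told apart. Markers of neurons were abundant in the introns of every culture, with 5 of 5 found and a summed level of 2701 to 3928 reads per 1e6 (RPM). Astrocyte markers summed to 299 to 501 RPM, oligodendrocyte lineage markers to 60.2 to 145, inhibitory neuron markers to 63.9 to 138, excitatory neuron markers to 141.2 to 197, microglial markers to 0.499 to 2.25 and endothelial markers to 0.897 to 2.02. Their part in the Pcsk1 results was not tested. The column of vehicle brief activity at 60 min, replicate 2, was deposited with the same values as that of U0126 sustained activity at 60 min, replicate 2, in both total RNA tables. Both were left out, so each of those groups has 1 replicate in the introns. The repeated column held 136 RPM of Pcsk1 introns (2235 reads) under either label.

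The first question was how fast the gene was transcribed. Pcsk1 introns rose 49.5-fold after 60 min of sustained activity, the 5th largest change of 21513 transcripts tested, and a smaller rise was already called at 20 min. The introns stood at 2.88 and 3.80 RPM in unstimulated vehicle cultures, at 9.38 and 9.18 RPM after 20 min of sustained activity, and at 196 and 158 RPM after 60 min. The 3 groups did not overlap. The log2 difference from unstimulated cultures was 1.42 ± 0.21 (SE) at 20 min, with a limma adjusted p of 0.0306, and 5.63 ± 0.21 at 60 min, with an adjusted p of 5.14e-06 and a 95% interval of the fold of 36.0 to 68.2. Over all transcripts 0.223% were called higher at 20 min and 3.11% at 60 min. Dissections pair the intron samples, and with the replicate as a block those shares were 0.581% and 7.29%, with an adjusted p of 0.0064 for Pcsk1 at 20 min. The call at 20 min was lost in each of the 4 fits that left out 1 replicate (adjusted p of 0.0908 to 0.277). From 20 to 60 min Pcsk1 introns rose by 4.21 ± 0.21 on the log2 scale (adjusted p = 7.76e-05), the largest increase of all transcripts between those times, of which 1.38% were called higher. With the repeated columns kept, its adjusted p was 0.0956.

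**Figure D1:**
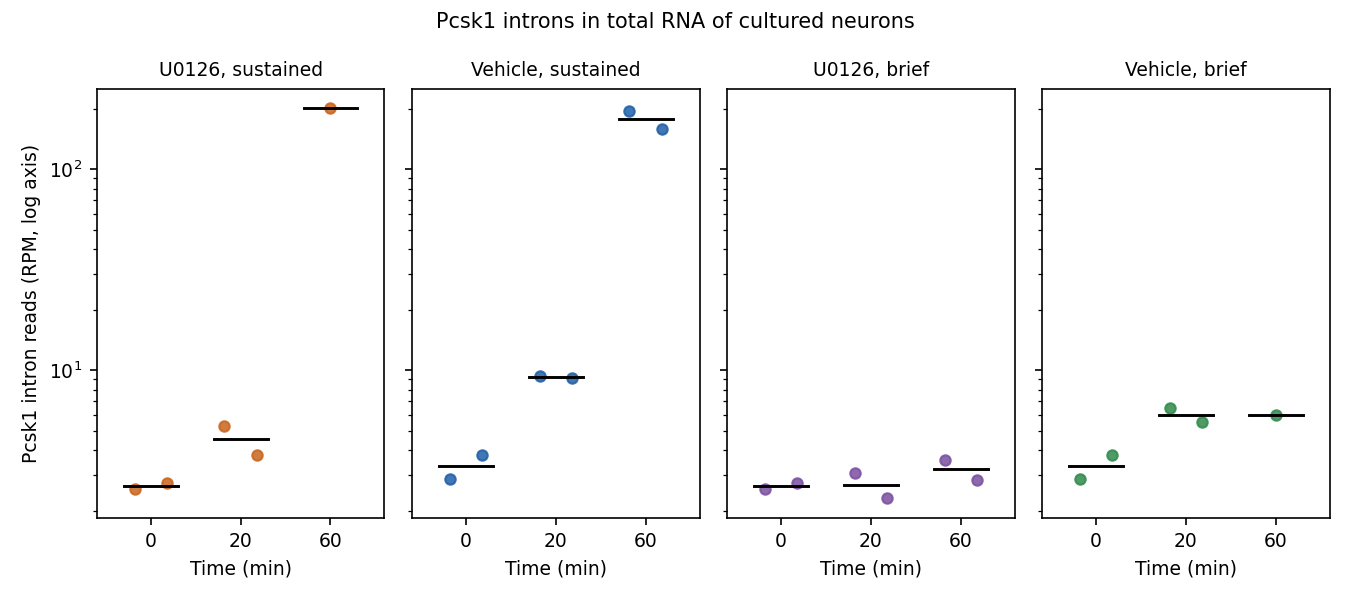
Pcsk1 intron reads in RPM (log axis) against minutes of activity in total RNA of cultured neurons, by drug and pattern. Points are dissections, lines are means, and 60 min of sustained activity stands at 158 to 200 RPM with either drug, against 2.86 to 5.99 RPM after 60 min of brief activity. The column deposited under 2 labels, at 136 RPM, is not plotted.

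The mRNA followed later. In captured libraries Pcsk1 mRNA was 4.40-fold higher after 60 min of sustained activity and 98.7-fold higher after 360 min, both on the scale of log2(value + 0.00936). Unstimulated vehicle cultures ranged from 0.0370 to 0.144 (median 0.0662, mean 0.0728 ± 0.0349, SD, n = 7), and the replicates at 20 min stood at 0.0837, 0.0767 and 0.0873. At 60 min the values ranged from 0.157 to 0.913 with a median of 0.299 (mean 0.376 ± 0.246, n = 7), and at 360 min from 4.11 to 13.1 (mean 8.12 ± 3.26, n = 6). The groups at 60 and 360 min overlapped neither each other nor the unstimulated one, while that at 20 min lay inside the unstimulated range. The log2 difference was 0.26 ± 0.38 at 20 min (limma adjusted p = 0.998), 2.14 ± 0.29 at 60 min (adjusted p = 1.19e-07) and 6.63 ± 0.30 at 360 min (adjusted p = 4.98e-22). The shares of 280 panel genes called higher were 2.14%, 12.9% and 69.3%. Pcsk1 had the 15th largest change at 60 min and the largest at 360 min, with fold intervals of 2.93 to 6.62 and 64.5 to 151.

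The panel as a whole was higher at 360 min, with a median log2 difference of 1.47 over all genes tested. When libraries were rescaled to a common panel median, the Pcsk1 difference at 360 min was 5.03. As a share of all panel reads, which needs no scaling factor, Pcsk1 took 1.50% on average at 360 min (0.690% to 2.38% by replicate), 0.123% at 60 min and 0.0288% in unstimulated cultures. The step between 60 and 360 min was itself called, at 4.49 ± 0.30 (limma adjusted p = 9.42e-16), and was the largest of the panel, of which 58.9% was called higher, beside a median of 1.19. The mean level at 360 min was 21.6 times that at 60 min.

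**Figure D2:**
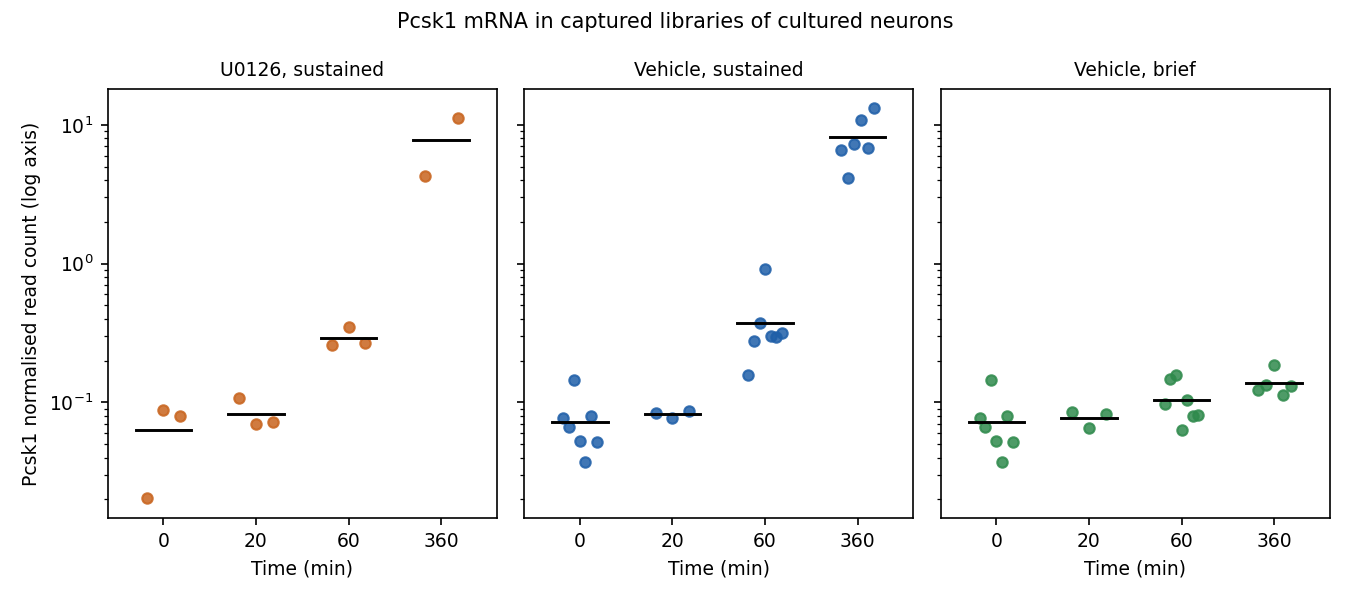
Pcsk1 normalised read count (log axis) against minutes of activity in captured libraries of cultured neurons, by drug and pattern. Points are dissections, lines are means, and both sustained series reach 4.11 to 13.1 at 360 min while all brief values stay at or under 0.186.

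Introns and mRNA were set side by side for the 256 panel genes whose introns were also tested. The intron change of Pcsk1 at 60 min (log2 5.63) exceeded its mRNA change at that time (2.14) by 3.49, the largest such gap of these genes, whose median gap was 0.22. The values come from separate tables, each normalised by itself, so the gap is a description with no test. Above Pcsk1 in intron change at 60 min stood Fosb (6.76), Nr4a1 (6.51), Npas4 (6.35) and Fos (6.28), all immediate-early transcription factors. At 20 min all 4 stood above Pcsk1 in both readouts. Fos and Npas4 introns were already at log2 5.59 and 5.85 after 20 min, and their mRNA at 3.61 and 3.89, where Pcsk1 mRNA stood at 0.26.

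Compared with the secretory and late genes below, Pcsk1 combined an intron change close to that of immediate-early genes with late mRNA. Other panel genes outside that comparison showed a like course. Nr4a3 had an intron change of log2 4.81 at 60 min and mRNA changes of -0.34, 1.58 and 3.83 at 20, 60 and 360 min. Nr4a2 had 4.06 in introns and -0.23, 2.09 and 3.5 in mRNA, and Fosl2 had 3.90 and -0.49, 1.26 and 3.23. Bdnf, a secreted neurotrophin, had intron changes of log2 -0.08 and 2.23 at 20 and 60 min and mRNA changes of -0.18, 0.61 and 4.99 at 20, 60 and 360 min. Scg2 had 0.81 and 2.26 in introns and 0.08, 0.99 and 4.00 in mRNA. Vgf was earlier in both, with 2.98 and 4.75 in introns and 0.17, 3.01 and 4.23 in mRNA. Nptx2, a secreted pentraxin, had 0.29 and 0.31 in introns and -0.44, 0.09 and 2.87 in mRNA. These are log2 differences from unstimulated vehicle cultures, and the differences between genes were not tested.

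**Figure D3:**
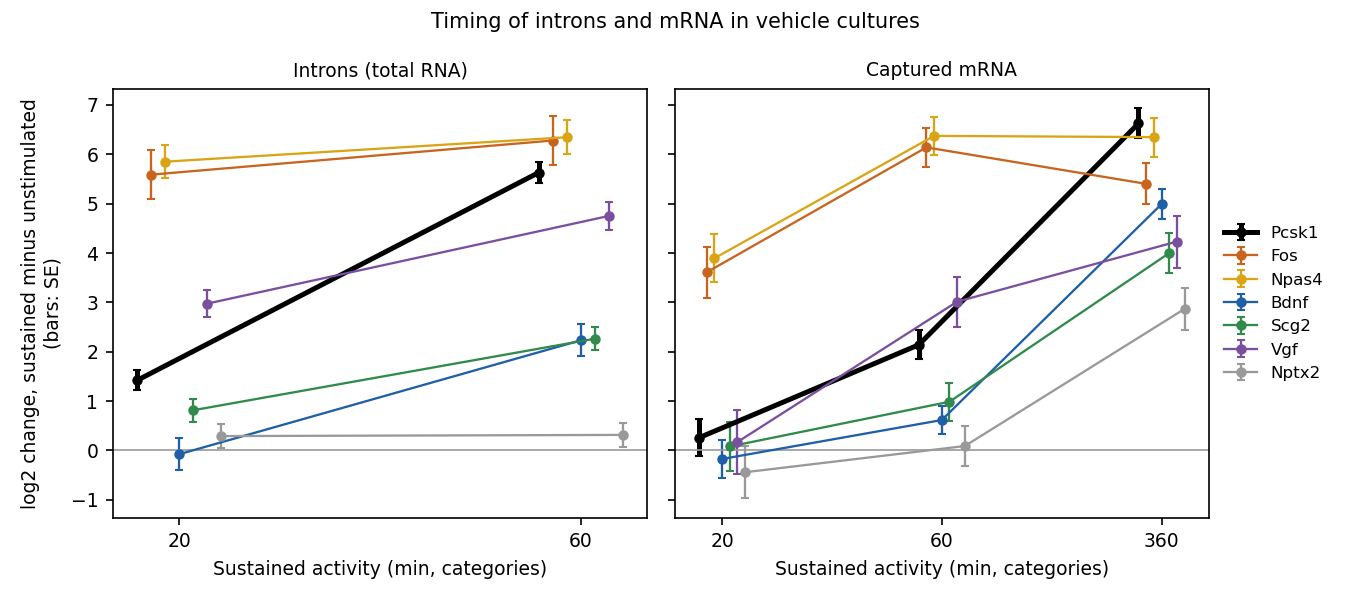
Log2 change of sustained over unstimulated vehicle cultures, with SE bars, for Pcsk1 and 6 other genes, in introns at 20 and 60 min (left) and captured mRNA at 20, 60 and 360 min (right). Pcsk1 introns reach 5.63 at 60 min, while its mRNA is at 2.14 then and at 6.63 at 360 min.

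Brief activity raised Pcsk1 in no fit at the threshold. The mRNA stood at 0.0857, 0.0651 and 0.0819 at 20 min, ranged from 0.0631 to 0.158 at 60 min (median 0.0982, n = 7), and stood at 0.123, 0.133, 0.186, 0.113 and 0.130 at 360 min. The brief groups overlapped the unstimulated range of 0.0370 to 0.144 at each time. At 360 min each brief value still lay above the unstimulated value of the same replicate number, such as 0.186 against 0.144 in replicate 3. The replicate at 0.148 among those at 60 min rests on 2 Pcsk1 reads in a library of 8498. Log2 differences from unstimulated cultures were 0.17 ± 0.38, 0.51 ± 0.29 and 0.91 ± 0.32, with limma adjusted p of 0.997, 0.435 and 0.63, where 2.14%, 5.36% and 0% of panel genes were called higher (9 genes had an unadjusted p under 0.05 at 360 min). In the introns brief activity gave 6.47 and 5.52 RPM at 20 min and 5.99 RPM at 60 min, above both unstimulated values of 2.88 and 3.80. The log2 differences were 0.81 at both times (adjusted p = 0.391 and 0.538), where 0.112% and 0% of all transcripts were called, and 1508 transcripts had an unadjusted p under 0.05 at 60 min. With the replicate as a block, 0.786% and 0.27% of transcripts were called, and the adjusted p of Pcsk1 at 20 min was 0.0873. With the repeated columns kept, brief activity at 60 min held 5.99 and 136 RPM in vehicle. The log2 difference was then 3.035 and was still not called.

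The difference between the patterns was tested directly. At 60 min Pcsk1 mRNA was higher after sustained than after brief activity by log2 1.63 ± 0.29 (limma adjusted p = 7.36e-05), although the lowest sustained value, 0.157, lay just under the highest brief value, 0.158. At 360 min the difference was 5.71 ± 0.33 (adjusted p = 3.26e-18), the 2nd largest of the panel, and the groups were far apart. The shares of panel genes called higher were 7.5% and 66.4%. In the introns the patterns differed by 4.82 ± 0.25 at 60 min (adjusted p = 0.000121), with 1.39% of transcripts called higher, or 3.88% with the block. With the repeated columns kept, the vehicle brief group at 60 min held 5.99 and 136 RPM. The difference between the patterns was then 2.59 and was not called (adjusted p = 0.99). At 20 min they differed by 0.61 in introns (adjusted p = 1) and by 0.09 in mRNA (adjusted p = 0.999).

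The captured U0126 values appear unchanged in a table labelled sustained and in another labelled brief. They are read here as sustained, so the pattern behind every U0126 captured gene value is uncertain. With that reading, Pcsk1 mRNA also rose with sustained activity in U0126. With U0126 the mRNA stood at 0.0204, 0.0804 and 0.0880 in unstimulated cultures, at 0.107, 0.0699 and 0.0721 after 20 min, at 0.260, 0.349 and 0.270 after 60 min, and at 4.25 and 11.2 after 360 min. The groups at 60 and 360 min lay above every unstimulated value. The log2 difference in U0126 was 0.51 at 20 min, where 0.357% of genes were called higher. The rise in U0126 was 2.23 ± 0.45 at 60 min (limma adjusted p = 0.00049) and 6.76 ± 0.50 at 360 min (adjusted p = 1.84e-14), where it was again the largest of the panel. The shares of genes called higher in U0126 were 7.14% and 48.6%.

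The response in U0126 minus that in vehicle was 0.26 ± 0.58 at 20 min, 0.09 ± 0.53 at 60 min and 0.13 ± 0.58 at 360 min on the log2 scale. The 95% intervals of the ratio of folds ran from 0.506 to 2.25 at 60 min and from 0.485 to 2.48 at 360 min, so changes within those bounds could not be seen. A moderated F test over the 3 times gave p = 0.978 for Pcsk1, and it called 0 of 280 genes, with 5 at an unadjusted p under 0.05. The dissections at 360 min kept their order with both drugs, 11.2 in U0126 and 13.1 in vehicle for replicate 6, 4.25 in U0126 and 6.77 in vehicle for replicate 7.

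In the introns U0126 gave lower values than vehicle at 20 min but not at 60 min of sustained activity, with no call. After 20 min of sustained activity Pcsk1 introns stood at 5.28 and 3.79 RPM in U0126, against 9.38 and 9.18 RPM in vehicle. After 20 min of brief activity they stood at 3.09 and 2.31 RPM in U0126, against 6.47 and 5.52 RPM in vehicle. In neither pattern did the groups overlap, with 2 values a group. How many other transcripts separated in the same way was not counted. The log2 differences were -1.01 and -1.09, with limma adjusted p of 0.526 and 0.461, and 47th and 46th from the lowest of all transcripts. Unstimulated cultures stood at 2.56 and 2.76 RPM in U0126, against 2.88 and 3.80 RPM in vehicle, so the change of the response itself was smaller, -0.72 after sustained and -0.80 after brief activity (adjusted p = 1 for both), where 0% and 0.00465% of transcripts were called. With the replicate as a block the adjusted p of the U0126 differences were 0.108 and 0.0894, and 0.144% and 0.0883% of transcripts were called, against 0.0139% and 0.0279% without it.

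After 60 min of sustained activity the single U0126 replicate held 200 RPM, against 196 and 158 RPM in vehicle. The rise in U0126 was log2 6.11 ± 0.25 (limma adjusted p = 1.6e-05), the 4th largest of all transcripts, where 1.31% were called higher, or 3.94% with the block. After 60 min of brief activity U0126 cultures stood at 3.56 and 2.86 RPM, against 5.99 RPM in the single vehicle replicate. That difference was -0.86 (adjusted p = 0.973). The lone replicates are assumed to vary like the others. Over 20 and 60 min together, a moderated F test of the U0126 difference of responses passed for Pcsk1 introns in neither pattern. The unadjusted p of that F test was 0.0125 for sustained and 0.0565 for brief activity. It called 0 of 21513 transcripts in either pattern, with 383 and 435 at an unadjusted p under 0.05.

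The late rise of the mRNA was also seen with cycloheximide. After 360 min of sustained activity Pcsk1 stood at 35.0 and 19.7 with cycloheximide, against 9.41 and 10.2 in vehicle. Unstimulated cultures stood at 0.0770 and 0.121 with cycloheximide, against 0.0911 and 0.164 in vehicle. Both cycloheximide values lay above both vehicle values after activity, and the unstimulated groups overlapped. The sustained response was log2 7.92 ± 0.41 with cycloheximide (limma adjusted p = 3.74e-08), the largest of 283 genes, and 6.19 ± 0.41 in vehicle (adjusted p = 3.08e-07), the 4th largest. The shares of genes called higher were 54.8% and 73.9%.

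After activity Pcsk1 was 2.68-fold higher with cycloheximide than in vehicle (95% interval 1.44 to 4.98, limma adjusted p = 0.016), where 18% of genes were called higher and the panel median was -0.08. That call was lost without cycloheximide replicate 1 (adjusted p = 0.132) and held in the other 3 fits that left out a replicate. The response with cycloheximide minus that in vehicle was log2 1.73 ± 0.58, with an adjusted p of 0.0635, where 4.95% of genes were called higher and 15.9% in either direction. It passed in 3 of 7 alternative fits, and the highest adjusted p of the 7 was 0.0736. Those that passed were with the libraries rescaled (2.11, adjusted p = 0.0331), a variance trend (adjusted p = 0.0487) and the replicate as a block (adjusted p = 0.0263). With 1 replicate left out the difference ran from 1.32 to 2.14. As a share of panel reads Pcsk1 took 3.90% and 2.57% with cycloheximide, against 1.39% and 1.70% in vehicle. The same difference of responses was -1.76 for Fos (adjusted p = 0.032) and -2.25 for Nptx2 (adjusted p = 0.033), and -1.21 for Bdnf, -1.33 for Vgf and -0.49 for Scg2, which did not pass.

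**Figure D4:**
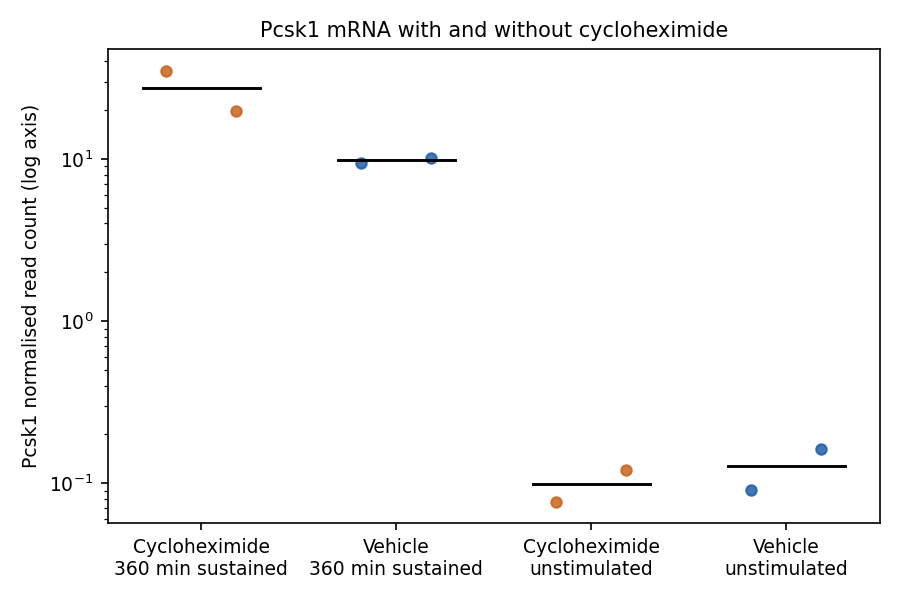
Pcsk1 normalised read count (log axis) in captured libraries with cycloheximide or vehicle, after 360 min of sustained activity or unstimulated. Points are replicates and lines are means, and the cycloheximide values after activity, 19.7 and 35.0, lie above the vehicle values, 9.41 and 10.2.

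The enhancer region assigned to Pcsk1 spans chr13:75272550-75273650 in build mm9, which the submitters' processing notes name. RNA at enhancers is often short-lived, and the signal here comes from captured libraries of 48309 to 1073939 reads. After 60 min of sustained activity the region stood at 1.99, 17.3, 2.27 and 0.954 in U0126 and at 0, 1.99, 2.78 and 0.824 in vehicle. Unstimulated cultures stood at 0.739, 0.319, 0.176 and 0.0993 in U0126 and at 0.0968, 0, 0.182 and 0.0961 in vehicle. In U0126 the stimulated and unstimulated values did not overlap, and in vehicle 3 of 4 stimulated replicates lay above all unstimulated ones while the 4th had no read. These levels depend on the factor of each library. U0126 replicate 2, at 17.3, held 557 reads (0.287% of its library), and vehicle replicate 3, at 2.78, held 1166 (0.265%). Mean shares were 0.1677% in U0126 and 0.09526% in vehicle after activity, against 0.02255% and 0.01348% in unstimulated cultures. The log2 difference was 2.67 ± 0.80 in U0126 (limma adjusted p = 0.0355) and 1.83 ± 0.80 in vehicle (adjusted p = 0.157), where 4.96% and 9.62% of 343 regions were called higher. The call in U0126 held in 3 of 8 fits that left out a replicate (1.86 to 3.16). It was lost on recovered reads in edgeR (4.05, adjusted p = 0.208).

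Sustained against brief activity at 60 min gave log2 3.33 ± 0.80 at the region in U0126 (limma adjusted p = 0.00758), where brief cultures stood at 0, 0, 0.358 and 0.143 and 5.54% of regions were called higher. Without sustained U0126 replicate 2 the value was 2.52 and the call was lost (adjusted p = 0.0943). In vehicle it gave 1.22 (adjusted p = 0.512), with brief cultures at 0.972, 0, 0.314 and 0.134 and 4.08% of regions called higher. The response in U0126 minus that in vehicle was 0.83 ± 1.13, so no difference between the drugs was seen at this precision. In vehicle at 20 min the values ran from 0 to 1.14 after sustained and from 0 to 2.18 after brief activity. Unstimulated vehicle replicates stood at 0.182 or less. The libraries at 1.14 and 2.18 held 46 and 90 reads of the region (0.0251% and 0.0423% of their reads). An unstimulated vehicle culture at 0.216 held 76 (0.0301%). Mean shares in vehicle at 20 min were 0.009682% after sustained and 0.01865% after brief activity, against 0.01348% in unstimulated cultures. Total RNA covered the region with 11 reads in U0126 and with 3 and 3 reads in vehicle after 60 min of sustained activity, against 0 to 4 in unstimulated cultures, too few for a comparison.

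In visual cortex Pcsk1 mRNA was higher in the light than in the dark at 150 min of sustained light in corn oil mice, and no other comparison of light and dark passed. After 150 min of sustained light it stood at 0.793, 1.27 and 1.20 in corn oil mice, against 0.519 and 0.483 in the dark. After 30 min it stood at 0.902, 0.982 and 0.870 in the light, against 0.768 and 0.808 in the dark. Light and dark did not overlap at either time, with 3 samples against 2, and how many other genes separated in the same way was not counted. The log2 difference was 1.08 ± 0.19 at 150 min, a fold of 2.12 with a 95% interval of 1.59 to 2.82 (limma adjusted p = 0.00252), and 0.22 ± 0.19 at 30 min (adjusted p = 0.397). The shares of 266 panel genes called higher were 9.02% and 33.1%. With libraries rescaled the values were 0.77 at 150 min, still called, and -0.29 at 30 min. The light groups at 150 and 30 min differed by 0.21 ± 0.17 (limma adjusted p = 0.453) and the dark groups by -0.65 ± 0.21 (adjusted p = 0.0846, 3.76% of genes called). The light response at 150 min minus that at 30 min was 0.86 ± 0.27 (adjusted p = 0.113, 4.14% of genes called).

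With SL327, sustained light gave 0.697, 1.09 and 0.715 at 150 min, against 0.567 and 0.571 in the dark, and 0.813, 0.746 and 0.790 at 30 min, against 0.940 and 1.11 in the dark. Light lay above dark at 150 min and below it at 30 min. Neither difference passed, at log2 0.52 ± 0.19 (limma adjusted p = 0.258) and -0.38 ± 0.19 (adjusted p = 0.28), where 0.376% of genes were called higher at 150 min and 3.38% in either direction at 30 min. The dark groups with SL327 differed by -0.84 ± 0.21 between 150 and 30 min (adjusted p = 0.0304), where 6.39% of genes were called, and no fit that left out a sample kept that call. The light response with SL327 minus that in corn oil was -0.57 ± 0.27 at 150 min (adjusted p = 0.324) and -0.60 ± 0.27 at 30 min (adjusted p = 0.132), where 0.376% and 19.9% of genes were called in either direction. A moderated F test of that difference over both times gave p = 0.0301 for Pcsk1 (adjusted p = 0.0949), where 48 of 266 genes were called.

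Brief light left Pcsk1 within a narrow range. Corn oil mice stood at 0.637 and 0.591 at 150 min in the light, against 0.640 and 0.699 in the dark, and at 0.643, 0.614 and 0.728 at 30 min, against 0.618, 0.668 and 0.656 in the dark. SL327 mice stood at 0.712 and 0.676 at 150 min in the light, against 0.705 and 0.857 in the dark, and at 0.642, 0.589 and 0.586 at 30 min, against 0.534 and 0.788 in the dark. The log2 differences of light and dark ran from -0.16 to 0.03, and none passed, where at most 1.15% of 260 genes did. Sustained and brief light were in separately normalised tables, so their responses were not tested against each other. Nothing in the labels says how samples relate to animals, so these p-values measure the spread between samples.

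**Figure D5:**
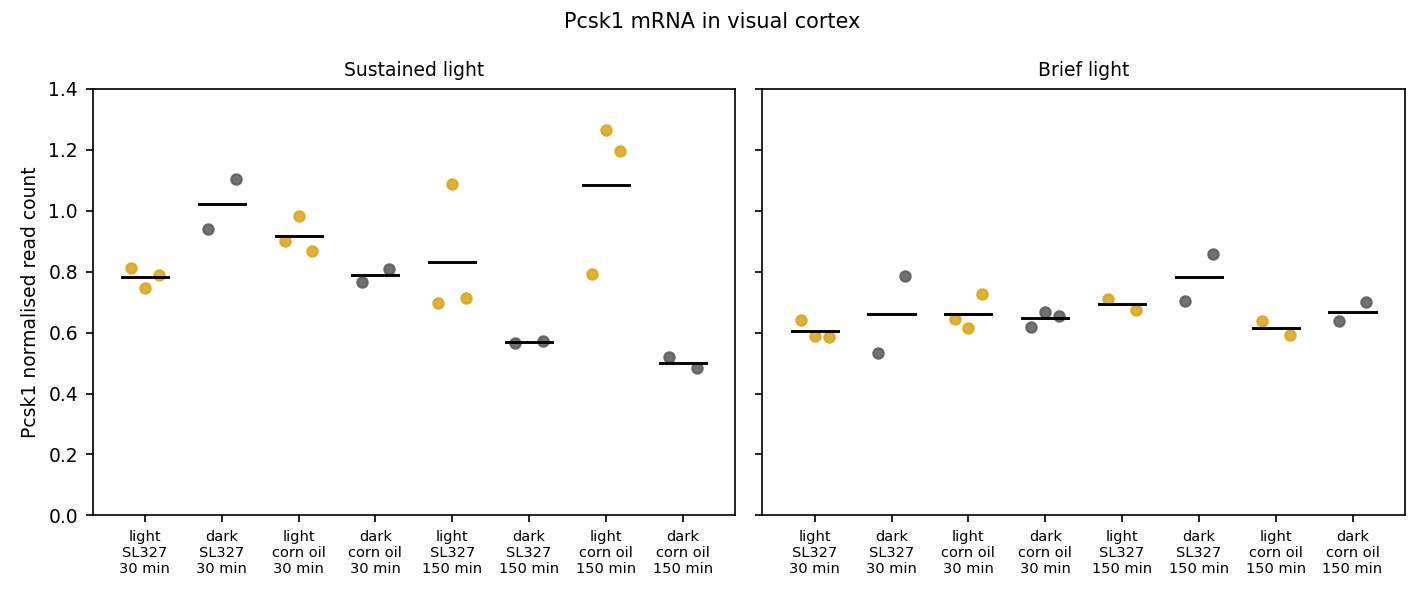
Pcsk1 normalised read count in visual cortex after sustained (left) or brief (right) light or in the dark, with SL327 or corn oil, at 30 and 150 min. Points are samples and lines are means, and at 150 min of sustained light corn oil samples stand at 0.793 to 1.27, against 0.483 to 0.519 in the dark.

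Among the subtilisin-type convertases whose introns were tested, only Pcsk1 was called after 60 min of sustained activity (1 of 8, with a median log2 difference of -0.12 beside -0.09 over all transcripts). Of all transcripts 3.11% were called higher and 4.84% lower, or 2.86% and 2.06% with the libraries rescaled, and the counts below stand beside those shares. After Pcsk1 the highest were Furin at 0.08, Pcsk7 at -0.09 and Mbtps1 at -0.10, and the other convertases tested stood lower. Furin cleaves precursors in the Golgi, and Mbtps1 cleaves membrane-bound transcription factors. Neither binding protein of the convertases passed, with Pcsk1n, an inhibitor of Pcsk1, at 0.24 and Scg5, a chaperone of Pcsk2, at 0.34. Of 5 trimming and amidating enzymes, Cpe rose by 0.58 (limma adjusted p = 0.0251) and Cpm fell by 0.68 (adjusted p = 0.0299), while Pam stood at 0.40. Of 5 granins Scg2 and Vgf rose, by 2.26 and 4.75, and Chga stood at 0.26. Of 15 peptide and growth factor precursors tested Bdnf rose by 2.23 and Inhba fell by 1.14, with a median of 0.03. Of 9 genes for vesicle release none passed, with Syt4 at 1.00 (adjusted p = 0.138).

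Fewer of these genes were on the captured panel. After 360 min of sustained activity the 3 granins on it rose (Scg2 by log2 4.00, Vgf by 4.23 and Chga by 1.09), as did 6 of 6 precursors, among them Bdnf by 4.99, Adcyap1 by 3.71 and Pnoc by 2.25, and Pam by 2.05. The median of the precursors was 2.18 beside 1.47 over the panel, of which 69.3% was called higher. Relative to the panel median of 1.47, Chga and Igf1 (1.30) stood lower. At 60 min, where 12.9% of the panel was called higher, only Vgf among them rose, by 3.01. After 150 min of sustained light Bdnf rose by 1.29 and Scg2 by 0.44 in corn oil mice, beside 1.08 for Pcsk1 and 9.02% of the panel called higher.

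The panel genes whose mean log2 levels ran most like those of Pcsk1 over the 11 groups of captured cultures were Rgs2, a regulator of G protein signalling (Pearson r 0.994), Zdbf2 (0.987), Errfi1, an inhibitor of the EGF receptor (0.986), Homer1, a postsynaptic scaffold (0.983), and Pard6a (0.982). The median r over 279 genes was 0.828, since these groups share their libraries and most genes rise at 360 min. Their rises at 360 min, from 1.68 for Pard6a to 3.49 for Rgs2 on the log2 scale, were smaller than that of Pcsk1. At 60 min Zdbf2 also showed a larger change in introns (3.56) than in mRNA (0.52). So did Homer1 (2.07 and 0.54), Errfi1 (2.04 and 0.60) and, by less, Rgs2 (1.54 and 1.14), while Pard6a stood at 0.48 and 0.46. By introns over 10 groups the most similar genes were Nup98, Saraf, Erf, Adpgk and Syt4, with r from 0.990 to 0.995.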

How the data were processed

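RNA of 186 samples was read from the deposited tables, of which 201 of 229 sample columns were used. The 28 others were the second copy of a U0126 capture table deposited identically under the sustained and the brief label (14 columns, read as sustained, which is uncertain, so U0126 with brief activity was not analysed here in the capture), unstimulated columns repeated in the brief table (13), and 1 column that matched no grouped sample. The headers sl217 and sl317 were read as SL327. Stranded total RNA libraries, part of them captured with RNA baits, were made per the labels' protocols. The submitters' processing notes name STAR, SAMtools, bedtools and mm9, with no versions. The captured values were deposited as a signal (reads over 1 factor per library) and the introns as RPM, worked out from the deposited values: 100% were whole multiples of 1 read within 0.05 reads. The median depth was 1923703 reads in the culture gene capture, 17945701 in introns and 255966 in captured enhancers.

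Tests used limma 3.58.1 (R 4.3.3) on log2(value + pseudocount), with all groups of a table in 1 fit and Benjamini-Hochberg adjustment over the table (threshold 0.05). The pseudocount was the 10th percentile of non-zero values: 0.00936 (capture), 0.0115 (cycloheximide), 0.248 (introns), 0.229 (enhancers), 0.00317 and 0.00341 (visual cortex, sustained and brief). Features averaging less than it were not tested, and folds on this scale understate changes of low genes. Alternatives were other pseudocounts, no filter, rescaled libraries, a variance trend, replicate blocks, left-out replicates, kept repeated columns, and edgeR 4.0.16 on the recovered reads. For the culture gene capture they also were the first culture of each dissection only, and the library under 50000 reads left out. Same-numbered intron samples deviated together (r of 0.842 to 0.905 in 28 pairs), so these numbers pair the samples. With 2 replicates a group, numbers 1 and 2 give the same r and count as 1 set of values. Scripts were tested on simulated data. Genes named beside Pcsk1 come from the pathway lists, the timing markers, those ranked above it, and the 5 most similar by r. Nr4a2, Nr4a3 and Fosl2 were added for their intron and mRNA changes. Members and lists were chosen with earlier results of these data known. Tables and figures were handled in Python 3.11.15 (pandas 2.3.3, matplotlib 3.10.9, numpy 2.4.6).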

Additional observations from a re-analysis of the deposited data

Results flagged for a closer look

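In 15 groups of 4 to 7 replicates Pcsk1 was checked for a replicate whose gap to the rest was large beside the range of its group. Of these groups 6 had one. The check used values without logs, and each flagged replicate was the highest of its group. How often chance gives such a gap in values like these was not tested. In captured mRNA these were unstimulated vehicle replicate 3 at 0.144 (others 0.0370 to 0.0799), vehicle sustained 60 min replicate 4 at 0.913 (others 0.157 to 0.371) and vehicle brief 360 min replicate 3 at 0.186 (others 0.113 to 0.133). At the enhancer region they were U0126 sustained 60 min replicate 2 at 17.3 (others 0.954 to 2.27), vehicle sustained 20 min replicate 1 at 1.14 (others 0 to 0.0909) and vehicle brief 20 min replicate 1 at 2.18 (others 0 to 0.154).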

How the results depend on the processing

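Of 928 alternative fits of 63 Pcsk1 results, 872 kept direction and side of the threshold, 23 lost a call, 6 gained one and 27 turned direction. Rescaling the libraries turned the light response at 30 min in corn oil (-0.29), the SL327 difference at 30 min (0.072) and the enhancer response at 20 min (-0.14), and gave 1.44 for introns at 20 min and 2.00 for the enhancer in U0126, both no longer called. It gave 2.11 for the cycloheximide difference of responses, which then passed, as did 1.73 with a variance trend and 1.73 with the replicate block. edgeR turned the U0126 difference of responses at 60 min (-0.12) and gave 4.05 for the enhancer in U0126, uncalled, as was 3.00 with the pseudocount halved. With the repeated columns kept, the U0126 difference in introns at 60 min of sustained activity turned (-0.091), and introns at 20 min (1.42), from 20 to 60 min (4.21) and for sustained against brief activity at 60 min (2.59) lost their calls. The cause was not tested in these cases. For captured cultures and enhancers the numbers did not deviate together in every pair (lowest r -0.259, -0.104 with cycloheximide and -0.04 for enhancers), and the block changed no other Pcsk1 call.

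Leaving out 1 replicate gave these ranges of log2 differences. In the capture they were -0.040 to 0.82 for U0126 at 20 min, -0.30 to 0.56, -0.46 to 0.40 and -0.56 to 0.83 for the U0126 difference of responses at 20, 60 and 360 min, and -0.021 to 0.16 for sustained against brief at 20 min. With cycloheximide they were 1.01 to 1.84 after activity, -0.69 to 0.080 in unstimulated cultures and 1.32 to 2.14 for the difference of responses. At the enhancer they were -0.24 to 0.62 at 20 min in vehicle, and 1.86 to 3.16 and 2.52 to 3.81 in U0126 at 60 min against unstimulated and brief. In introns they were 1.23 to 1.61 for sustained activity at 20 min and -0.19 to 0.20 for brief activity in U0126 at 20 min. With sustained light they were -0.95 to -0.72 for the SL327 dark groups and 0.74 to 1.08 for 150 minus 30 min in corn oil. With brief light they were -0.042 to 0.081 in corn oil and -0.38 to 0.18 with SL327 at 30 min, and -0.41 to 0.15 and -0.18 to 0.10 for the SL327 difference at 30 and 150 min. With 2 replicates a group, small responses of introns and of visual cortex could be missed, and low read numbers limit the enhancer region.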
